A study of Nothobranchius furzeri with 20 samples.

Results

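In the brain of the turquoise killifish, 150 genes that were lower at 27 than at 9 weeks of age in every library, with rotenone or with DMSO, were examined as a set. The turquoise killifish (Nothobranchius furzeri) is an annual fish with a very short life, used to study ageing. Each of the 4 groups had 5 libraries of whole brain RNA from males of the strain MZM-04/10p. Fish of 27 weeks were given rotenone at 1% of its LC50 (median lethal concentration) in one group and DMSO in another. Fish of 9 weeks were given the same rotenone in one group and DMSO in another. All groups share the strain and the sex. The labels do not give how long or by which route the fish were exposed, and fish without either agent were not analysed here.

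Brain ageing in this fish is studied as a compressed form of vertebrate ageing. The adult fish brain keeps radial glia that divide and give rise to neurons, and this production is known to decline with age. Rotenone blocks complex I of the mitochondrial respiratory chain, which passes electrons from NADH to ubiquinone. At low dose it has been used to ask whether mild mitochondrial inhibition alters the course of ageing.

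The members were chosen by their measured levels, as counts per 1000000 counts of the library (CPM) on the scale log2(CPM + 1). A gene had to have a mean of at least 5 CPM over the 20 libraries, its highest value among the 10 libraries of 27 weeks had to lie below its lowest among the 10 of 9 weeks, and the means of rotenone and DMSO at 27 weeks had to lie within 0.2. Of 26739 genes, 14271 reached the level, 690 of these also had no overlap between the ages, and 578 met all 3 criteria. The 150 with the most negative difference, 27 minus 9 weeks, are the members. Every statement on age in these genes therefore describes the choice, and none is a test of it.

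Of the 690 genes without overlap, 112 lay outside the 0.2 limit on the rotenone difference. In 110 of those 112 the rotenone fish of 27 weeks were lower than the DMSO fish, and in 2 they were higher. The criterion thus mostly took out genes whose level in old fish was lower still with rotenone.

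The genes next to each limit were close to the members. The member ranked 150 had a difference of -0.4722 and the next gene one of -0.4713 on log2(CPM + 1). The narrowest separation of a member, its lowest 9-week value minus its highest 27-week value, was 0.00438, and among genes that had fallen as far the nearest one left out for overlap stood at -0.00034. The member farthest from 0 in the rotenone difference at 27 weeks had -0.198 and the nearest gene left out on this criterion had -0.200. The lowest mean level of a member was 5.26 CPM, and 27 genes under 5 CPM met the other criteria with a fall as large, the highest at 4.95 CPM.

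Genes are given only by an Nfu_g_1 identifier. None of the 26739 identifiers was found in the RefSeq gene table used here (0 matches), so no member could be given a name, a function, a place in the genome or a sequence, and the labelled tissue was not checked against marker genes. Library totals ran from 19433958 to 24159773 counts, with overlapping ranges in the 4 groups. In whole brain, fewer cells of a type and less RNA per cell cannot be told apart. No batch is given in the labels, and anything shared by all libraries of an age cannot be told apart from age.

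Together the members took up a smaller share of the RNA in old brains. Their summed level was 6024, 5655, 6285, 6311 and 6493 CPM in the 5 rotenone libraries of 27 weeks, and 6078, 6265, 6771, 7183 and 6903 CPM in the DMSO libraries of 27 weeks. At 9 weeks it was 10518, 9238, 10453, 9894 and 9336 CPM in rotenone and 9010, 9945, 10204, 9804 and 9816 CPM in DMSO. The group means were 6154 ± 325 CPM in rotenone and 6640.1 ± 458 CPM in DMSO at 27 weeks, against 9888 ± 601 CPM in rotenone and 9756 ± 447 CPM in DMSO at 9 weeks (SD, n = 5 each). Old and young libraries did not overlap, which the choice of members fixes. The mean log2(CPM + 1) of all 14271 genes moved little, at 5.0914 ± 0.0039 in rotenone and 5.0906 ± 0.0150 in DMSO at 27 weeks, against 5.066 ± 0.0268 in rotenone and 5.061 ± 0.0209 in DMSO at 9 weeks. CPM scales every library to the same total, which limits how far this mean can move, and it says nothing on total RNA.

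**Figure D1:**
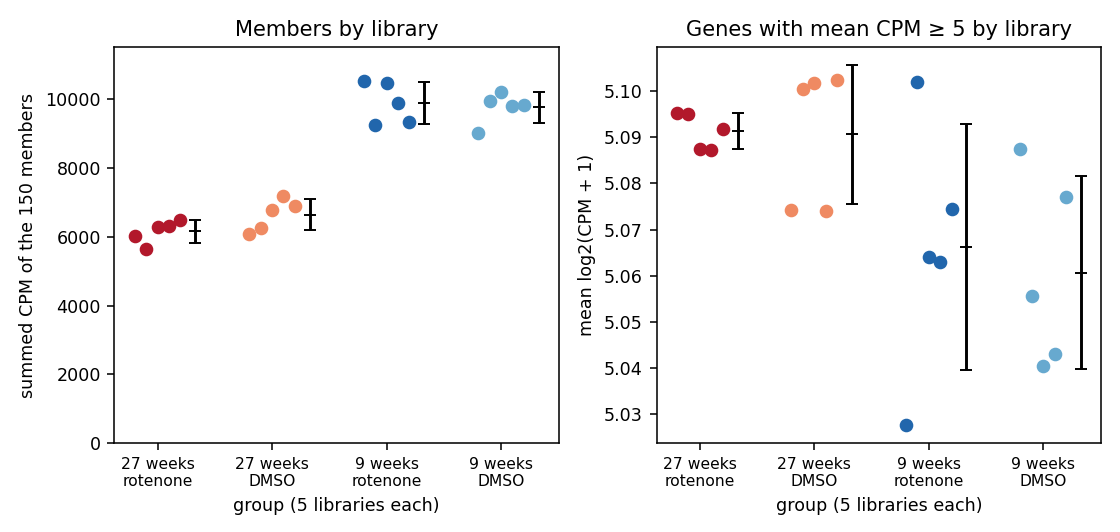
Left, summed CPM of the 150 members in each library (points) by group, with the mean and SD of 5 libraries beside them. Right, the mean log2(CPM + 1) of the 14271 genes with a mean of at least 5 CPM, on an axis that does not start at 0. The 10 libraries of 27 weeks sit between 5655 and 7183 CPM and the 10 of 9 weeks between 9010 and 10518 CPM.

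Most members fell by a modest amount. Over both treatments the difference, 27 minus 9 weeks, had a median of -0.58 on log2(CPM + 1), with quartiles of -0.70 and -0.51, against a median of 0.01 over the 14271 genes. A difference of -1 or below was seen in 7 members, one above -1 and at most -0.7 in 33, and the other 110 lay between -0.7 and the limit. The last of the 7, Nfu_g_1_000594 at -1.003, had 1 DMSO library of 9 weeks at 115 CPM, far above its other young libraries. In the rotenone fish the median was -0.66 (from -2.47 to -0.39) and in the DMSO fish -0.53 (from -2.19 to -0.36). These comparisons share no library, but the rule used the libraries of both treatments, so both falls were set by the same choice.

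**Figure D2:**
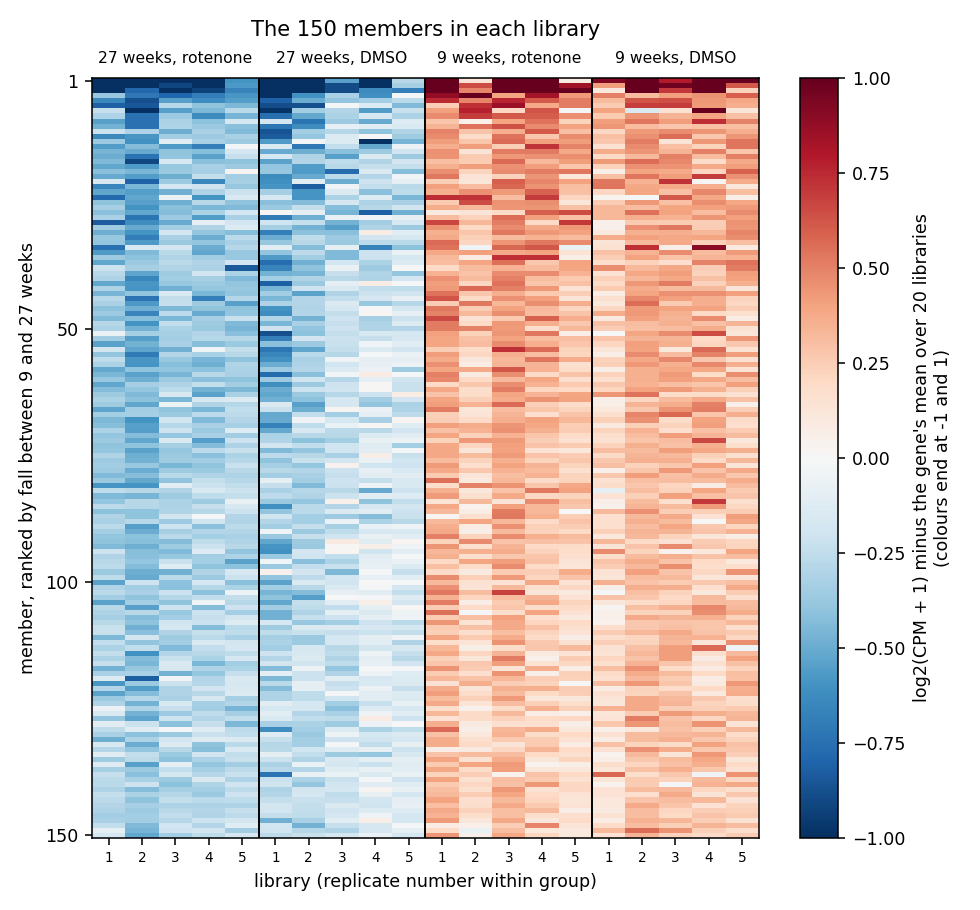
Each row is a member, ranked by its fall between the ages, and each column a library. Colour gives log2(CPM + 1) minus the gene's mean over the 20 libraries. All 150 rows are lower in the 10 libraries of 27 weeks, and 7 members have a difference of -1 or below.

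Fitted across all genes, age called nearly every member, as their choice implies. Of 19452 genes tested with edgeR's quasi-likelihood test, all 150 members among them, 18.2% were called lower at 27 weeks in rotenone and 13.8% in DMSO (adjusted p below 0.05). Of the members, 149 were called lower in rotenone and 150 in DMSO. Their log2 fold changes had a median of -0.70 in rotenone, from -3.15 to -0.47, and of -0.57 in DMSO, from -2.45 to -0.39. The median standard error of a member was 0.0882 in rotenone and 0.0880 in DMSO. Nothing is read from these counts, since the same libraries chose the genes.

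**Figure D3:**
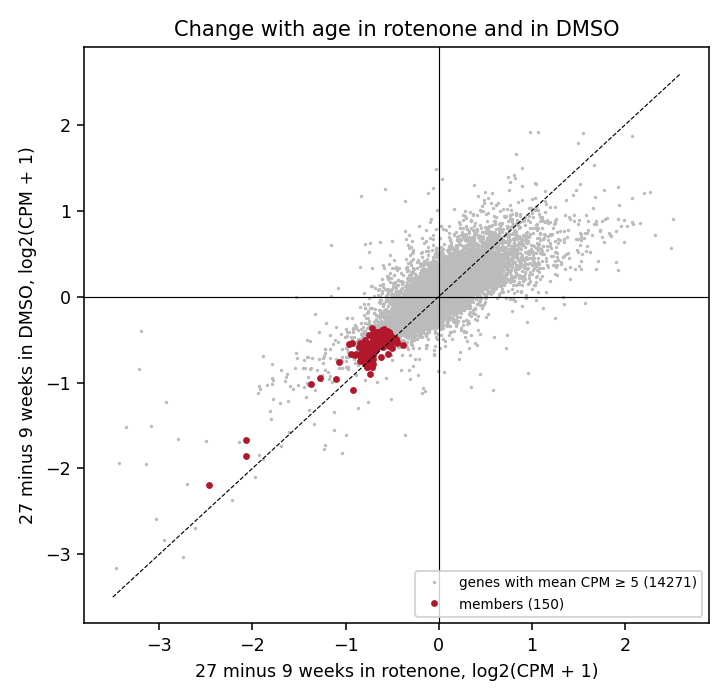
Change with age, 27 minus 9 weeks on log2(CPM + 1), in rotenone fish (horizontal) and in DMSO fish (vertical) for the 150 members (red) and the 14271 genes with a mean of at least 5 CPM (grey), with the line of equal change dashed. Members lie at -2.47 to -0.39 in rotenone and at -2.19 to -0.36 in DMSO, most of them on the side of the line where the rotenone value is more negative.

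Lists chosen in one treatment alone could be looked up in the other, whose libraries took no part in the choice. The calls still came from the fit of all 20 libraries, in which the groups share an estimate of each gene's spread. They are therefore not free of the choosing libraries and are given as a description. Membership itself was decided with all 20 libraries, so the counts for genes that are not members were not free of the looked-up libraries either. Listed genes had to reach the level of at least 5 CPM, while the shares of all tested genes include lower ones. With the level and overlap criteria applied to the 10 DMSO libraries only, and no limit on the rotenone difference, 1270 genes passed, and the 150 with the largest fall held 65 of the members. In the rotenone fish 139 of these 150 were called lower at 27 weeks (edgeR), where 18.2% of all tested genes were, with a median log2 fold change of -0.88 and 149 below 0. Among the 85 that are not members, 75 were called lower. With the 10 rotenone libraries used for the choice, 2315 genes passed, and the top 150 held 22 members. In the DMSO fish 130 of those 150 were called lower, where 13.8% of all tested genes were, with a median of -0.75 and 148 below 0. Among the 128 that are not members, 108 were called lower.

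The member with the largest fall was Nfu_g_1_017355. At 27 weeks it stood at 1.89, 1.64, 2.21, 1.59 and 4.02 CPM in the rotenone libraries and at 2.34, 1.18, 4.19, 1.62 and 5.25 CPM in the DMSO libraries. At 9 weeks it stood at 35.1, 7.33, 24.7, 25.6 and 7.10 CPM in rotenone and at 13.4, 19.4, 12.1, 17.4 and 16.1 CPM in DMSO. The young rotenone libraries thus fell into 3 high and 2 low ones, the low ones below every young DMSO library, and still above every old library. Its log2 fold change with age was -3.15 ± 0.48 in rotenone (SE; edgeR adjusted p = 8.3e-05) and -2.45 ± 0.46 in DMSO (edgeR adjusted p = 0.00116).

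The widest separation of the ages was that of Nfu_g_1_021098, the next in rank. It stood at 8.60, 8.89, 10.6, 8.73 and 13.7 CPM in rotenone and at 7.88, 9.83, 10.7, 7.69 and 16.3 CPM in DMSO at 27 weeks. At 9 weeks it stood at 64.1, 33.3, 43.7, 51.1 and 38.2 CPM in rotenone and at 28.096, 45.7, 41.8, 54.1 and 32.3 CPM in DMSO. The highest old library, DMSO replicate 5, remained well under the lowest young one, DMSO replicate 1. The log2 fold change was -2.21 ± 0.23 in rotenone (SE; edgeR adjusted p = 2.2e-06) and -1.97 ± 0.23 in DMSO (edgeR adjusted p = 3.17e-05).

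The third in rank, Nfu_g_1_015122, had almost the same profile. Its levels at 27 weeks were 10.1, 14.2, 12.04, 12.7 and 15.4 CPM in rotenone and 8.75, 11.1, 13.1, 15.8 and 15.2 CPM in DMSO. At 9 weeks they were 82.0, 35.5, 50.9, 63.8 and 61.03 CPM in rotenone and 27.07, 59.9, 41.6, 65.6 and 29.6 CPM in DMSO. In all of the top 3 members rotenone replicate 1 was the highest young library. After each group's mean had been subtracted, the correlations of the 3 pairs among them over the 20 libraries had a median of 0.73, a description of genes measured in the same libraries.

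The rest of the list lay at much smaller differences. The member ranked 4 averaged 3.597 ± 0.527 CPM in rotenone and 3.99 ± 1.51 CPM in DMSO at 27 weeks, against 11.1 ± 2.69 CPM in rotenone and 8.75 ± 0.699 CPM in DMSO at 9 weeks (SD, n = 5 each). The member ranked 75 averaged 44.08 ± 2.33 CPM in rotenone and 50.12 ± 5.84 CPM in DMSO at 27 weeks, against 73.0 ± 3.71 CPM in rotenone and 68.7 ± 3.94 CPM in DMSO at 9 weeks. The member ranked 150 averaged 28.2 ± 2.86 CPM in rotenone and 30.5 ± 1.64 CPM in DMSO at 27 weeks, against 41.4 ± 5.09 CPM in rotenone and 40.97 ± 2.15 CPM in DMSO at 9 weeks.

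The most abundant member by CPM, ranked 112, stood at 436, 393, 407, 466 and 455 CPM in rotenone and at 415, 401, 460.2, 481 and 420 CPM in DMSO at 27 weeks. At 9 weeks it stood at 583, 568, 708, 625 and 576 CPM in rotenone and at 613, 604, 649.8, 561 and 715 CPM in DMSO. The highest old and the lowest young library were 0.22 apart on log2(CPM + 1).

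Members had low to moderately high levels, and the most abundant genes were not among them. Their mean level had a median of 32.0 CPM, from 5.26 to 527 CPM, against a median of 30.4 CPM and a highest value of 6207 CPM over the 14271 genes. Per kilobase of gene (RPKM, here with each library's own total) the median was 12.6 RPKM, from 1.00 to 472 RPKM, against 11.2 RPKM. Over all 578 genes that met the criteria, those with smaller falls included, the median was 55.5 CPM.

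Gene length, which the rule did not use, differed a little between the members and other genes. It was recovered from the counts and the deposited RPKM, so it is the length used for RPKM and not necessarily that of the whole gene. How far it depends on the annotation was not tested. The median length was 2859 bases in members and 3072 bases in the 14271 genes. Of the members 36.0% were in the shortest tertile of those genes (at most 2061 bases), where 33.4% of all were, and 22.7% in the longest (over 4344 bases), where 33.3% were. Among members the larger falls went with longer genes: median length was 3327 bases at ranks 1 to 50, 3066 bases at ranks 51 to 100 and 1797 bases at the last 50 ranks. Across the members the Spearman correlation of length with the difference, 27 minus 9 weeks, was -0.31, and over the 14271 genes it was 0.14. Genes share libraries, and both values are descriptions. Consecutive identifiers were found in 1 pair of members, and no such number was taken for other genes.

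Within groups the members tended to move together. With each group's mean subtracted, the correlation between pairs of members over the 20 libraries had a median of 0.33 (11175 pairs), and 85.9% of pairs were above 0. Over all pairs of the 14271 genes the median was 0.00779 and 50.9% were above 0. The rule bounds the extreme libraries of each age and does not use the order of libraries within a group, but all pairs share the same libraries. Against the mean of the other members, 148 of 150 members had a correlation above 0 and 96 one above 0.5, with a median of 0.60. Taken within one age, this median was 0.63 over the 10 libraries of 27 weeks and 0.62 over the 10 of 9 weeks. The correlation with the other members was taken for members only, and the 14271 genes include ones that rose with age. Whether other genes that fell with age move together in the same way was not examined.

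This joint movement could be followed library by library. Among the rotenone libraries of 27 weeks, replicate 2 was the lowest in 90 of 150 members and replicate 5 the highest in 54. Among the DMSO libraries of 27 weeks, replicate 1 was the lowest in 85 members, and replicates 4 and 5 were the highest in 61 and 48. At 9 weeks, rotenone replicates 2 and 5 were the lowest in 65 and 54 members, and DMSO replicate 1 in 86. The highest library was less often the same one. In rotenone fish of 9 weeks it was replicate 3 in 56 members and replicate 1 in 54, and in DMSO fish of 9 weeks it was spread over replicates 2 to 5, with 29 to 42 members each.

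The library nearest to the other age was likewise often the same one. Among all 10 libraries of 27 weeks the highest was DMSO replicate 4 in 54 members, DMSO replicate 5 in 40 and DMSO replicate 3 in 21, and DMSO replicate 1 or 2 in 6 and 4. A rotenone library was the highest in the other 25 members. Among the 10 libraries of 9 weeks the lowest was DMSO replicate 1 in 50 members, rotenone replicate 2 in 25 and rotenone replicate 5 in 21. These libraries had 22232944 (DMSO replicate 4 of 27 weeks) and 23384342 counts (DMSO replicate 1 of 9 weeks), inside the range of the other totals. The mean log2(CPM + 1) over all 14271 genes was 5.102 in rotenone replicate 2 of 9 weeks, the highest of its group, and 5.027 in replicate 1, the lowest, while members averaged 5.241 and 5.391 in them. In DMSO fish of 9 weeks, replicate 1 was likewise the highest of its group for all genes, at 5.087, and the lowest for members, at 5.198. In DMSO fish of 27 weeks the picture was mixed. Replicate 5 was the highest both for all genes, at 5.102, and for members, at 4.818. Replicate 4, next to it for members at 4.798, was the lowest for all genes, at 5.0741. Replicate 1, the lowest for members at 4.574, had 5.0743 for all genes. In rotenone fish of 27 weeks the means of all genes lay between 5.087 and 5.095. The part that such differences in the make-up of libraries play in the joint movement was not tested.

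At 27 weeks members lay slightly lower with rotenone within the limit set by the rule. The rotenone minus DMSO difference on log2(CPM + 1) had a median of -0.11, from -0.20 to 0.18, and 130 of 150 members (86.7%) were below 0, where 55.3% of the 14271 genes were, with a median of -0.02. Over the 578 genes that met the criteria, members included, the median was -0.07 and the upper quartile -0.02. edgeR called 0 members for rotenone at 27 weeks, where 0.391% of tested genes were called, and DESeq2 also called 0, where it called 2.43% of its tested genes. An unadjusted edgeR p below 0.05 was seen in 17 members (11.3%), all lower with rotenone, where 14.4% of tested genes had one in either direction and 8.7% one with rotenone lower. The members' share was thus near that of all genes. The rule removed genes beyond 0.2. It also kept only genes with every old library, rotenone libraries among them, below every young one, and ranked them by their fall. These values therefore describe what was left. The libraries overlapped: the members' mean log2(CPM + 1) ran from 4.51 to 4.70 in rotenone and from 4.57 to 4.82 in DMSO. Group means were thus a little lower with rotenone in most members, and no member passed the test. Members share libraries and are not replicates, so their count says nothing on the difference between fish.

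Rotenone against DMSO at 9 weeks was the one treatment difference that the rule did not set a limit on. The rule still used these libraries, since the lowest of all 10 had to lie above every old library, which leaves out genes with a low library in either treatment. The values at 9 weeks are therefore read as a description of the genes left. On log2(CPM + 1) the difference had a median of 0.01, from -0.22 to 0.42, and 63 of 150 members (42.0%) were below 0, where 53.5% of the 14271 genes were. In the edgeR fit the log2 fold changes had a median of 0.01, against -0.00182 over all tested genes. This median was -0.02 without DMSO replicate 1, and just below 0 without rotenone replicate 1 (-0.0037) or rotenone replicate 3 (-0.0037). Of the members 113 lay within 0.1 of 0, 139 within 0.2 and 145 within 0.3, with a median standard error of 0.0873. No member was called (0 by edgeR and 0 by DESeq2), where edgeR called 0.0257% of tested genes and DESeq2 0.485%. An unadjusted edgeR p below 0.05 was seen in 4 members, 3 higher and 1 lower with rotenone, where 6.99% of tested genes had one. The libraries of the groups did not overlap in 1 member, higher with rotenone, where 1.44% of tested genes had no overlap.

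**Figure D4:**
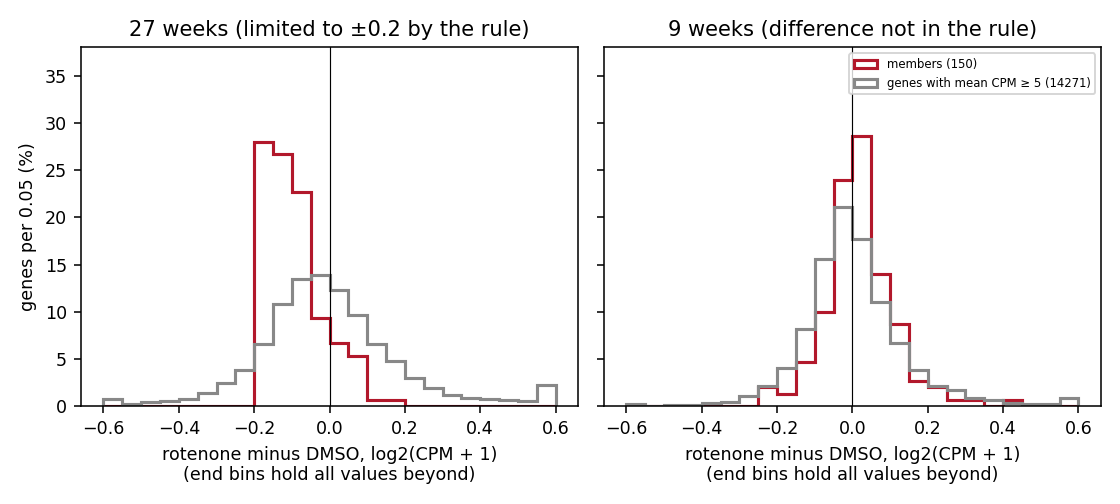
Rotenone minus DMSO on log2(CPM + 1) at 27 weeks (left) and 9 weeks (right), as the percentage of genes per bin of 0.05, for the 150 members (red) and the 14271 genes with a mean of at least 5 CPM (grey), with values beyond 0.6 in the end bins. At 27 weeks members lie within 0.2 of 0 by the rule and have a median of -0.11, and at 9 weeks they have a median of 0.01.

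By edgeR log2 fold change, the members with the most positive differences at 9 weeks varied widely between libraries. Nfu_g_1_015122 had the most positive one, at 58.6 ± 17.1 CPM in rotenone and 44.8 ± 17.4 CPM in DMSO (SD, n = 5 each), a log2 fold change of 0.40 ± 0.25 (SE; edgeR adjusted p = 0.856). It was 0.24 without rotenone replicate 1, 0.26 without DMSO replicate 1 and 0.57 without DMSO replicate 4. Nfu_g_1_017355 followed with 19.98 ± 12.4 CPM in rotenone and 15.7 ± 2.95 CPM in DMSO, 0.36 ± 0.43 (SE; edgeR adjusted p = 0.974). It was 0.05 without rotenone replicate 1, and 0.57 without rotenone replicate 2 or 5. On log2(CPM + 1), which averages logs, its difference was only 0.09. Groups overlapped in both genes.

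In the other direction stood Nfu_g_1_000594, with 26.5, 34.7, 23.01, 31.04 and 19.4 CPM in rotenone and 26.5, 17.8, 22.11, 115 and 21.6 CPM in DMSO at 9 weeks. One DMSO library thus stood far above the other 9. The log2 fold change was -0.58 ± 0.40 (SE; edgeR adjusted p = 0.886), and without that library, DMSO replicate 4, it turned to 0.29 (edgeR adjusted p = 0.764). Old fish had 16.7, 8.59, 13.2, 14.2 and 16.3 CPM of it in rotenone and 9.53, 15.4, 15.9, 13.1 and 16.8 CPM in DMSO. In the fit of all 20 libraries it was the 1 member not called for age in rotenone, with a log2 fold change of -0.98 ± 0.41 (SE; edgeR adjusted p = 0.0797). The spread in that fit includes the DMSO library at 115 CPM, and the part of that library in the missing call was not tested. With edgeR on the rotenone libraries alone, and with DESeq2 on all 20 libraries, all 150 members were called lower in rotenone.

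Nfu_g_1_003977, ranked 149, had the next most negative edgeR log2 fold change, and on log2(CPM + 1) the most negative difference of all members, -0.22, against -0.20 for Nfu_g_1_000594. At 9 weeks it stood at 6.14, 4.95, 6.75, 5.75 and 5.72 CPM in rotenone and at 6.84, 8.22, 7.54, 6.38 and 6.07 CPM in DMSO, with overlap. Its log2 fold change was -0.26 ± 0.11 (SE; edgeR adjusted p = 0.632). At 27 weeks it averaged 4.25 ± 0.521 CPM in rotenone and 4.42 ± 0.333 CPM in DMSO (SD, n = 5 each).

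**Figure D5:**
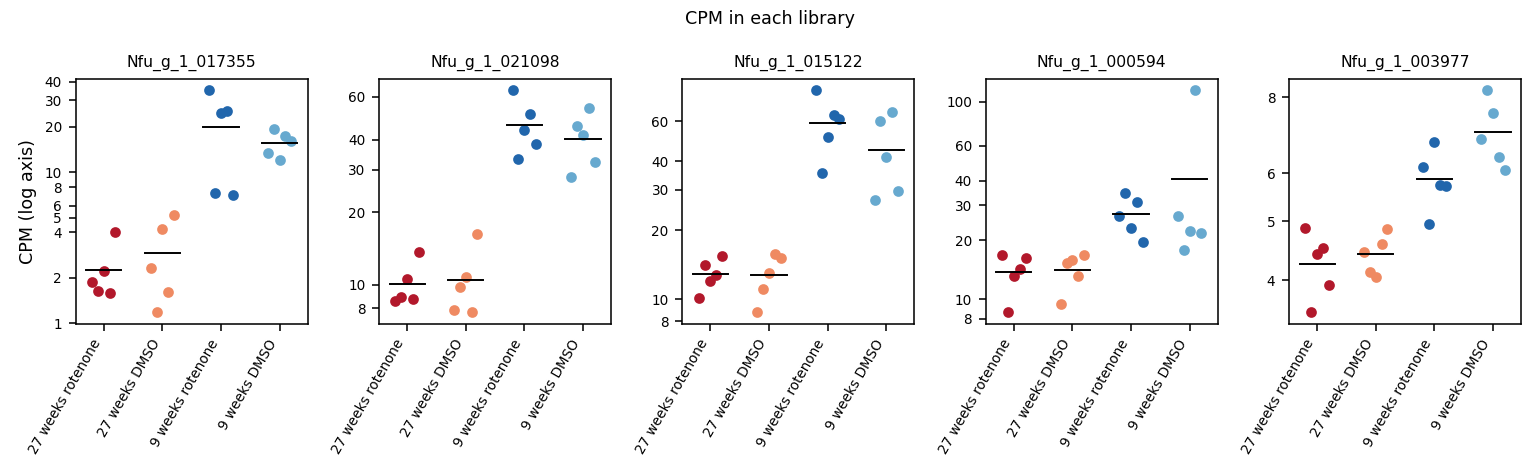
CPM of the 5 members given by identifier in each library (points) on log axes, by group, with bars at the group means. In each gene all 10 libraries of 27 weeks lie below all 10 of 9 weeks, and Nfu_g_1_000594 has 1 DMSO library of 9 weeks at 115 CPM.

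The fall was nominally larger in rotenone than in DMSO fish in most members. On log2(CPM + 1) this held for 129 of 150, where 51.5% of the 14271 genes had the more negative change in rotenone. Members share libraries and tend to move together, so this count is a description. Over the 578 genes that met the criteria, members included, the median change was also more negative in rotenone, at -0.41 against -0.34 in DMSO. Among all tested genes, age called more in rotenone in both directions, 3547 against 2694 lower and 2506 against 1876 higher. The members' summed CPM overlapped between rotenone and DMSO libraries at each age. The difference of the log2 fold changes, rotenone minus DMSO, had a median of -0.12, from -0.70 to 0.56. The test of this difference called 0 members with edgeR, where 0.0206% of tested genes were called, and 1 with DESeq2, where 0.733% were. An unadjusted edgeR p below 0.05 was seen in 12 members (8.0%), all with the larger fall in rotenone, where 10% of tested genes had one in either direction and 5.98% one in that direction. These shares are near those of all genes. The rule limits the 27-week part of this difference and so bounds it in part.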

How the data were processed

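Total brain RNA went into TruSeq RNA version 2 libraries, per the labels' protocols. The tools listed by the submitters' processing notes are featureCounts 1.4.6-p4, STAR 2.4.1d and bcl2fastq 1.8.4. Genome build, annotation and strand setting: not given in the sources used here, so reads of overlapping genes or near-identical copies could not be told apart. The deposited table holds whole-number counts of 26739 genes, not normalized. In the RPKM values deposited by the authors, 99.97% of values above 0 were recovered from the counts within 0.0011 RPKM with library totals taken in a recycled order, and 7.51% with each library's own total. RPKM was therefore used only for gene lengths and as an alternative.

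Libraries were grouped by their labelled age and agent. Replicate numbers follow accession order and pair nothing. The labels do not state that libraries came from separate fish, and p-values measure only how these libraries spread. Libraries within a group differed beyond counting noise (chi-square per degree of freedom 7.80 to 57.1 over 40 pairs). One count was worth up to 0.0515 CPM.

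The members, lists and tests were chosen with earlier results of these data known. Counts were fitted with edgeR 4.0.16 in R 4.3.3 (filterByExpr, TMM factors of 0.980 to 1.02, robust quasi-likelihood, 1 mean per group, all 20 libraries), which tested 19452 genes. Calls are at a p below 0.05 after Benjamini-Hochberg adjustment over all of them. Standard errors are those implied by the test. The edgeR fit was also run on simulated counts with changes put into a small part of the genes. Those counts do not mirror the choice of members, and no result here rests on them. Alternatives were DESeq2 1.42.0, other scalings, filters and limits, and leaving out each library. The comparison of the age change between treatments and the choice on rotenone libraries alone were added after the data were seen. Identifiers are printed for the 2 members with the largest fall and, at 9 weeks, for the 2 with the most positive and the 2 with the most negative log2 fold change for rotenone.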

Additional observations from a re-analysis of the deposited data

Results flagged for a closer look

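The gap of the most distant library to the next was taken for 4 measures per library and 5 printed genes in each group, 36 cases in all, and in 3 it exceeded 0.71 of the group's range. About 1 in 20 groups would do so by chance if they had not been picked by their values. The 5 genes were printed for their falls or their differences at 9 weeks, so this rate does not hold for them. In DMSO replicate 4 of 27 weeks 21427 genes had a count, against 21600 in the nearest library of that group. This library was also the highest of the 27-week libraries in 54 members. Nfu_g_1_017355 stood at 4.02 CPM in rotenone replicate 5 of 27 weeks, against 2.21 CPM in the nearest. Nfu_g_1_000594 stood at 115 CPM in DMSO replicate 4 of 9 weeks, against 26.5 CPM in the nearest.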

How the results depend on the processing

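The 578 genes that met the criteria became 349 with a limit of 0.1 on the rotenone difference, 1270 with the DMSO libraries alone and 2315 with the rotenone libraries alone. Of the 150 members, 66 were kept among the top 150 with a limit of 0.1, 83 with 0.4, 71 with no limit, 65 with DMSO libraries alone and 22 with rotenone libraries alone. Other scalings, pseudocounts and level limits kept 124 to 145, and leaving out 1 library kept 115 to 145, fewest without DMSO replicate 1 of 27 weeks. Median falls ran from -0.68 to -0.60 in rotenone and from -0.56 to -0.50 in DMSO over all alternatives.

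Age called 149 or 150 members in each treatment under all 16 alternatives, which the choice of the members in these libraries implies. Rotenone called 0 members at either age in all 16 alternatives of each comparison. The median log2 fold change for rotenone at 9 weeks, 0.01, lay between -0.02 and 0.04, and was below 0 without DMSO replicate 1 or rotenone replicate 1 or 3. For the difference of the age change DESeq2 called 1 member, with and without independent filtering, where it called 0.733% of tested genes with that filtering. The rotenone difference of Nfu_g_1_000594 at 9 weeks ran from -0.77 to 0.29 with 1 library left out, above 0 only without DMSO replicate 4, the library at 115 CPM. The age calls of the first 2 members held in all 16 alternatives of each comparison, which their choice by age likewise implies. No paired analysis was possible because the labels give no replicate numbers shared between groups.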
